A study of Danio rerio with 12 samples.

Results

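White muscle of exercised Gr mutant zebrafish was compared with that of non-exercised Gr mutants, gene by gene and pathway by pathway. Of the 31962 genes counted, 14584 had 10 or more counts in 3 or more of the 6 Gr mutant libraries, and these are the genes described. The exercised Gr mutants (3 libraries) had swum against a flow of 0.4 m/s for 4 weeks, 6 h a day and 5 days a week. The non-exercised Gr mutants (3 libraries) were held for the same 4 weeks at 0.1 m/s, a flow at which fish move freely. Both groups carried the gr s357 mutation, a single-base change in the part of the glucocorticoid receptor that binds DNA. The paper describes it as effectively blocking cortisol effects through this receptor, and its discussion allows that some receptor activity may remain. The whole study holds 12 libraries, with wild-type fish under the same 2 regimes as the other groups. All mutants came from 1 line and their age is not given in the sources used here, while the wild-type fish were 3 months old when supplied. Each exercise group had its own swim tunnel, so a tunnel difference and an exercise difference cannot be told apart, and p-values measure only the spread among fish of the same tunnel. The labels do not say how the libraries of a group are related beyond their being separate samples.

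Cortisol is the main stress steroid of fish, and through the glucocorticoid receptor it turns on genes of gluconeogenesis, amino acid release and the circadian clock output. White muscle is the bulk of the fish trunk and is made of fast, glycolytic fibres. In trained muscle, fibre proteins are built and broken down at the same time: E3 ubiquitin ligases mark proteins for the proteasome, autophagy clears larger structures, chaperones fold new chains, and fibroblasts lay down collagen around the fibres.

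Library totals were 12126957 to 13894240 reads in non-exercised and 7688323 to 12315951 reads in exercised Gr mutants. The first principal component of log2 CPM (counts per 1000000 reads after TMM scaling) held 32.5% of the variance and placed non-exercised replicates 1 and 2 at -55.1 and -50.7, with non-exercised replicate 3 at 21.8 among the exercised libraries at 19.5 to 43.8. Non-exercised replicate 3 therefore lay outside its own group on the main axis of variation. Several libraries also held transcripts of other organs. Non-exercised replicate 1 had 214 counts of cubn, a kidney tubule receptor, where no other library had more than 2, and it had 428 CPM of lyz, the lysozyme of neutrophils, where the others had at most 2.93. Exercised replicate 3 held 323 CPM of a list of 22 oocyte and egg envelope genes, where the other libraries held 0.634 to 2.02 CPM. The mutated gene nr3c1, which encodes the glucocorticoid receptor, was read at 36.7, 45.7 and 46.3 CPM in non-exercised and 58.8, 46.2 and 66.3 CPM in exercised Gr mutants. The ranges overlapped (log2 fold change 0.41, SE 0.258, unadjusted p = 0.145), and a transcript level does not test a point mutation.

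edgeR's quasi-likelihood fit of the 6 libraries called no gene at an adjusted p under 0.05 (0% of genes called, lowest adjusted p 0.0709), and 3 genes had an adjusted p under 0.1. At an unadjusted p under 0.05, 711 genes were higher (4.88% of those tested) and 826 were lower (5.66%) in exercised Gr mutants. This balance depended on how libraries were scaled, with 832 higher and 704 lower under upper-quartile scaling and 681 and 856 under RLE scaling. All 3 exercised libraries lay above all 3 non-exercised ones in 1314 genes (9.01%) and below them in 1049 (7.19%). With 3 libraries a side the smallest p of an exact permutation test is 0.1, and that test was not used for genes. DESeq2 on the same counts called 56 genes higher (0.455% of the genes to which it gave an adjusted p) and 40 lower (0.325%), and 91 of the 96 had groups without overlap. A fit that took its spread from all 12 libraries called 6 genes, all higher (0.0411%), and DESeq2 called these 6 as well. Among them were si:dkey-184p9.7, ampd3b, rorcb, zgc:171497 and CABZ01086041.1. Of these, zgc:171497 passed the count filter only through the exercised group, and its counts are given below. Without non-exercised replicate 3, edgeR called 58 genes, and without any other single library it called 0. The 58 included ampd3b and rorcb, higher, and hspb6, lower. They also included 5 of the 26 neutrophil and macrophage markers tested in that fit (spi1b, c1qb, c1qc, marco and mpeg1.1), all lower. The summed level of that marker list was 1266 and 988 CPM in non-exercised replicates 1 and 2 and 174 CPM in replicate 3. The part of immune transcripts in the 58 calls was not tested. The median log2 fold change over all genes tested was -0.02 (0.03 in the wild-type comparison), and list medians are to be read against it. The share of a list at an unadjusted p under 0.05 is likewise to be read against 4.88% higher and 5.66% lower. Below, higher and lower describe measured levels, since no single gene passed the adjusted threshold in edgeR. List counts from fits with a library left out are given without the count over all genes in the same fit. A move in them need not be particular to the list.

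The gene with the lowest p was si:dkey-184p9.7, which the annotation does not describe further. It was read at 1.58, 1.15 and 1.69 CPM in non-exercised and 18.5, 33.2 and 13.3 CPM in exercised Gr mutants, a log2 fold change of 3.87 (SE 0.409, unadjusted p = 7.16e-06). Next among genes with a mean of 100 or more counts came ampd3b, an AMP deaminase, the enzyme that turns AMP into IMP when ATP demand is high. Its level was 26.4, 26.4 and 24 CPM without exercise and 119, 209 and 152 CPM with exercise. The non-exercised libraries lay within 3 CPM of each other and every exercised library was over 4 times higher (log2 fold change 2.64, SE 0.305, unadjusted p = 1.46e-05). Of the other AMP deaminases, ampd3a was lower, at 6.62, 7.09 and 7.02 against 1.82, 5.07 and 3.57 CPM, and the muscle isoform ampd1 was read at 1861, 982 and 837 against 1303, 2109.7 and 1260.4 CPM with overlapping groups. rorcb, a nuclear receptor that activates clock genes, was read at 2.17, 4.15 and 8.001 CPM in non-exercised and 23.9, 84.6 and 104 CPM in exercised Gr mutants. Its exercised libraries spread over a wide range, yet the lowest of them was about 3 times the highest non-exercised one (log2 fold change 3.90, SE 0.656). The related rorca was also higher, from 6.15, 9.399 and 9.78 to 17.4, 27.2 and 23.1 CPM.

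Among the 12 genes of lowest p with higher levels in exercised Gr mutants, several encode transporters, a polyamine enzyme and proteins of turnover. slc43a2a, a transporter of large neutral amino acids, was read at 104, 82.9 and 72.4 CPM without and 197, 258 and 253 CPM with exercise. slc25a32a, a mitochondrial folate carrier, was read at 6.21, 4.56 and 4.801 against 14.98, 17.2 and 16.8 CPM, with narrow groups far apart. smox, the spermine oxidase, was read at 10.4, 8.82 and 19.7 against 37.4, 47.1 and 40.4 CPM. asb2a.1 (ENSDARG00000096748), a substrate subunit of a ubiquitin ligase, was read at 51.3, 36.1 and 94.3 against 317, 372 and 241 CPM. tp53inp1, a p53 target that takes part in autophagy, was read at 5.8, 3.52 and 10.3 against 24.3, 27.2 and 22.1 CPM. Groups without overlap were a condition for naming these 12 genes, so the separation of groups in these 5 was fixed in advance. Log2 fold changes of the 5 ran from 1.45 in slc43a2a to 2.36 in asb2a.1. The others were the kinase gene DYRK3 (log2 fold change 1.39), GTPBP2 (2 of 2), which rescues stalled ribosomes in mouse (2.21), dennd4a, an activator of Rab proteins (1.76), and a gene of undescribed function drawn beside them in the plot of CPM by gene. DESeq2 called 23 of the 24 genes named by lowest p, all but psme3 (DESeq2 adjusted p = 0.0628). It used the same counts from which these genes were picked, so its calls are no separate support.

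**Figure D1:**
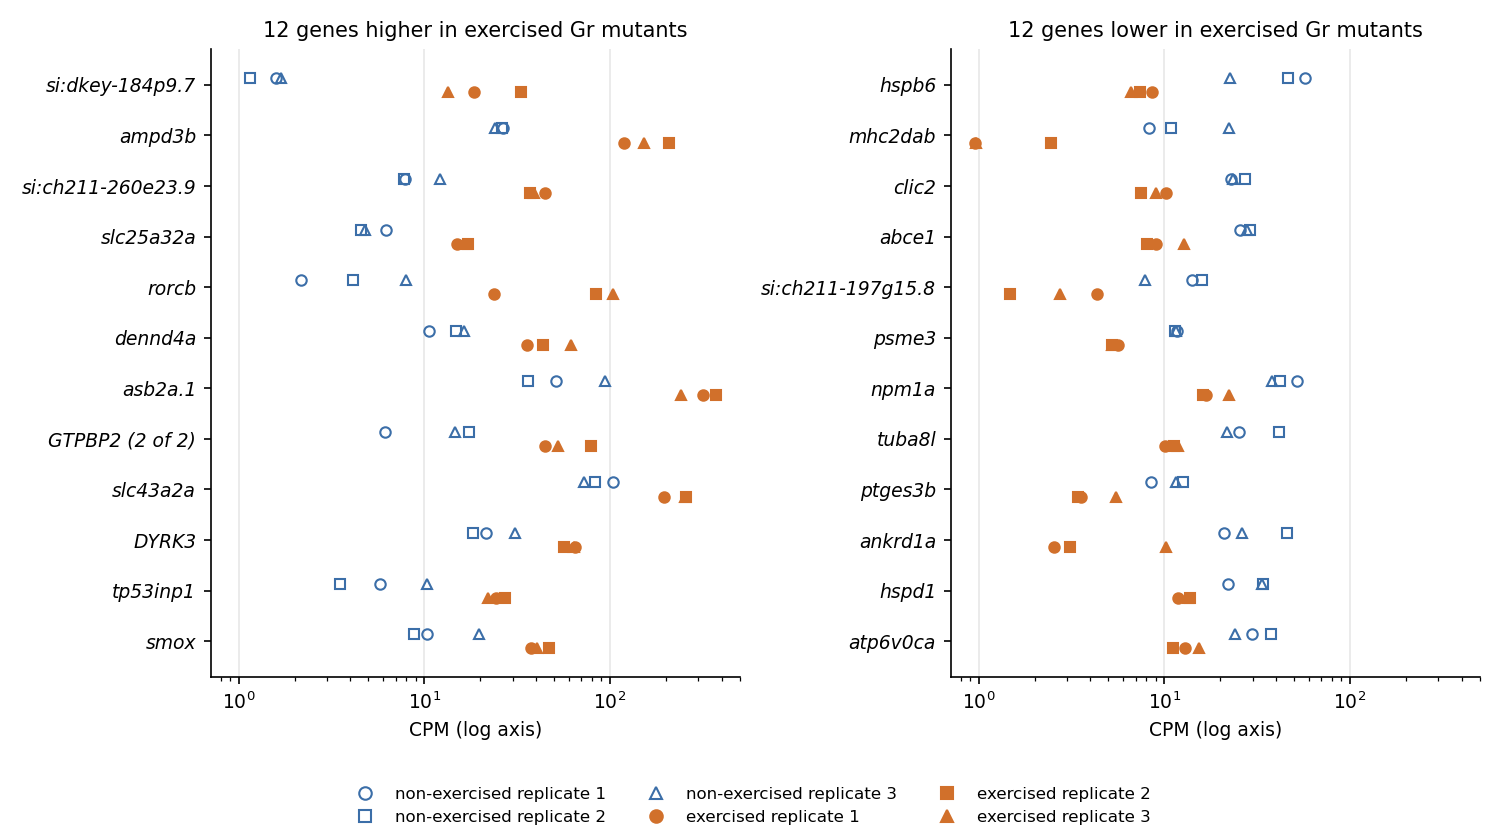
Level of 24 genes in each of the 6 Gr mutant libraries, in CPM on a log axis (open blue symbols, non-exercised; filled orange symbols, exercised; shapes mark replicates). On the left are the 12 genes of lowest p that were higher in exercised fish, on the right the 12 that were lower. All were taken only from genes whose 3 exercised libraries lie on one side of the 3 non-exercised ones.

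The 12 genes of lowest p with lower levels in exercised Gr mutants included 3 chaperone genes, hspb6, ptges3b and hspd1, and abce1 and npm1a, which serve the ribosome. hspb6, a small heat shock protein of muscle, was read at 57.1, 46.2 and 22.5 CPM in non-exercised and 8.56, 7.37 and 6.598 CPM in exercised Gr mutants. The exercised libraries were nearly equal and the closest non-exercised library, replicate 3, was still over 2 times higher (log2 fold change -2.48, SE 0.371, unadjusted p = 0.000106). ankrd1a, a stretch-responsive protein that binds titin, was read at 20.9, 46.01 and 26.3 against 2.54, 3.11 and 10.2 CPM. mhc2dab, an MHC class II chain of antigen-presenting cells, was read at 8.26, 10.9 and 22.4 against 0.951, 2.46 and 0.962 CPM, and here non-exercised replicate 3 held the highest level. abce1, which recycles ribosomes after termination, was read at 25.6, 29.1 and 28 against 9.04, 8.02 and 12.8 CPM, and npm1a, a nucleolar protein of ribosome assembly, at 51.9, 41.9 and 37.9 against 16.7, 16.2 and 22.3 CPM. clic2, a chloride intracellular channel protein, was read at 22.9, 27.4 and 23.5 against 10.2, 7.53 and 9.07 CPM. Groups without overlap were a condition for naming these 12 genes too. Log2 fold changes of the 5 from ankrd1a to clic2 were -2.57, -3.30, -1.47, -1.25 and -1.45 in the order named. The remaining ones were psme3, a proteasome activator (log2 fold change -1.105), tuba8l, a tubulin (-1.41), the Hsp90 co-chaperone ptges3b (-1.39), the mitochondrial chaperonin hspd1 (-1.21), the V-ATPase subunit atp6v0ca (-1.21) and si:ch211-197g15.8 (-2.10).

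Muscle ubiquitin ligases had positive fold changes in most members, and proteasome subunits, described next, negative ones. Of 44 tested muscle ubiquitin ligases and atrophy genes, 33 had a positive fold change, 8 were higher at an unadjusted p under 0.05 (18.2%) and 0 were lower, with a median log2 fold change of 0.53. trim63a, the muscle RING finger ligase of the sarcomere, was read at 70.07, 20.6 and 60.5 CPM without and 205, 189.9 and 124 CPM with exercise, so every exercised library stood above the non-exercised ones (log2 fold change 1.78). asb15b, another ankyrin and SOCS box protein, had 39, 6 and 0 counts without and 38, 106 and 73 counts with exercise, few in every library but exercised replicates 2 and 3. fbxo40.2, an F-box ligase of muscle, was read at 6.39, 9.802 and 26.1 against 47.8, 40.8 and 26.5 CPM, the groups nearly touching at non-exercised replicate 3. fbxo32, the atrogin-1 gene, varied widely within groups, at 96.7, 1.79 and 6.49 against 98.3, 229 and 33.5 CPM, and the groups overlapped. Both of the most abundant members, usp28 and klhl31, also overlapped between groups. Relative to the non-exercised mean, the list median of single libraries was 0.14, -0.28 and 0.08 on the log2 scale in non-exercised and 0.34, 0.59 and 0.65 in exercised replicates, so the groups did not overlap. With 1 library left out, the number of members higher at an unadjusted p under 0.05 ranged from 4 to 15 (4 without non-exercised replicate 2, 5 without exercised replicate 2, 15 without non-exercised replicate 1).

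Of 55 tested proteasome subunits, which build the particle that degrades ubiquitin-tagged proteins, 53 had a negative fold change, 16 were lower at an unadjusted p under 0.05 (29.1%) and 0 were higher. The median log2 fold change was -0.65. psma6l, a variant alpha ring subunit, was read at 9.43, 10.3 and 2.22 CPM in non-exercised and 0.555, 1.15 and 0.5499 CPM in exercised Gr mutants, with non-exercised replicate 3 the closest. Its counts were 161, 178 and 25 without and 7, 7 and 4 with exercise, so it passed the count filter only through the non-exercised group. psme3 was read at 11.8, 11.4 and 11.6 against 5.63, 5.24 and 5.22 CPM, with all libraries of a group nearly equal. psmb3, a beta ring subunit, was read at 49.3, 27.4 and 36.9 against 24.5, 18.01 and 16.5 CPM. The abundant subunits differed from these: psmd1 was read at 202, 79.2 and 84.3 against 79.1, 103 and 56.6 CPM and psmb4 at 149, 58.8 and 61.3 against 58.4, 81.9 and 46.1 CPM, in both cases with non-exercised replicate 1 far above the other 5 libraries. The library medians were 0.52, -0.34 and -0.27 in non-exercised and -0.47, -0.38 and -1.04 in exercised replicates, so replicate 1 of the non-exercised group stood high, replicate 3 of the exercised group stood low and the others lay between -0.47 and -0.27. Leaving out 1 library at a time, the number of members lower at an unadjusted p under 0.05 ranged from 3 to 21 (3 without non-exercised replicate 1, 4 without exercised replicate 3, 9 without exercised replicate 1 or exercised replicate 2), and with non-exercised replicate 1 and exercised replicate 3 both left out it was 1, with a median of -0.16.

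Autophagy genes were on balance higher, by a small margin. Of 46 tested, 8 were higher (17.4%) and 1 was lower at an unadjusted p under 0.05, and the median log2 fold change was 0.15. wipi1, a phosphoinositide-binding protein of the growing autophagosome, was read at 2.11, 2.19 and 3.02 CPM without and 7.13, 5.89 and 7.84 CPM with exercise, and its paralogue WIPI1 (1 of 2) at 1.23, 0.577 and 0.356 against 2.22, 1.64 and 3.44 CPM. ulk1a, the kinase that starts autophagy, was read at 14.4, 25.02 and 63.6 against 85.8, 71.2 and 113 CPM. All 3 genes had groups without overlap. The most abundant members, the lysosomal protease ctsd and the mitophagy receptor bnip3lb, had negative log2 fold changes of -0.74 and -0.44. Of 22 tested subunits of the V-ATPase, the proton pump of lysosomes (a list chosen after the values were seen), 21 had a negative fold change and 5 were lower at an unadjusted p under 0.05, with a median of -0.52. Its member atp6v1ba was read at 13.7, 25.4 and 9.51 against 5.71, 4.09 and 5.36 CPM and atp6v0ca at 29.6, 37.5 and 23.9 against 12.9, 11.13 and 15.4 CPM, neither with overlap. The number of autophagy genes higher at an unadjusted p under 0.05 ranged, with each library left out once, from 3 to 7 (3 without exercised replicate 3, 5 without exercised replicate 2), and that of V-ATPase subunits lower ranged from 2 to 8 (2 without exercised replicate 2, 3 without non-exercised replicate 2 or exercised replicate 3, 8 without non-exercised replicate 1 or non-exercised replicate 3).

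Heat shock proteins and chaperones were lower in exercised Gr mutants. Of 60 tested, 50 had a negative fold change, 14 were lower at an unadjusted p under 0.05 (23.3%) and 0 were higher, with a median log2 fold change of -0.47. hspa8, the constitutive Hsp70 and one of the most abundant members, was read at 361, 608 and 269 CPM in non-exercised and 159, 192 and 211 CPM in exercised Gr mutants. The 3 exercised libraries were close together and below every non-exercised one (log2 fold change -1.14). hspa14, an Hsp70 that works at the ribosome, was read at 7.03, 8.36 and 8.98 against 3.65, 2.29 and 3.299 CPM, and hspd1 at 22.1, 34.3 and 33.8 against 11.8, 13.8 and 13.5 CPM. ptges3b was read at 8.496, 12.7 and 11.6 against 3.57, 3.44 and 5.499 CPM. hsp90ab1, the constitutive Hsp90 of most cells, overlapped between groups at 754, 508 and 364 against 369.6, 536 and 375 CPM. The summed level of the list was 3832, 3881 and 3992 CPM in non-exercised and 2478, 2881 and 2591 CPM in exercised libraries, so the sums did not overlap. The library medians did not overlap either, at -0.15, 0.15 and 0.06 against -0.46, -0.33 and -0.49 on the log2 scale. Across the 6 fits that each lacked 1 library, the number of members lower ranged from 7 to 22 (7 without exercised replicate 3, 22 without non-exercised replicate 1), and with non-exercised replicate 1 and exercised replicate 3 both left out it was 17 with a median of -0.52.

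**Figure D2:**
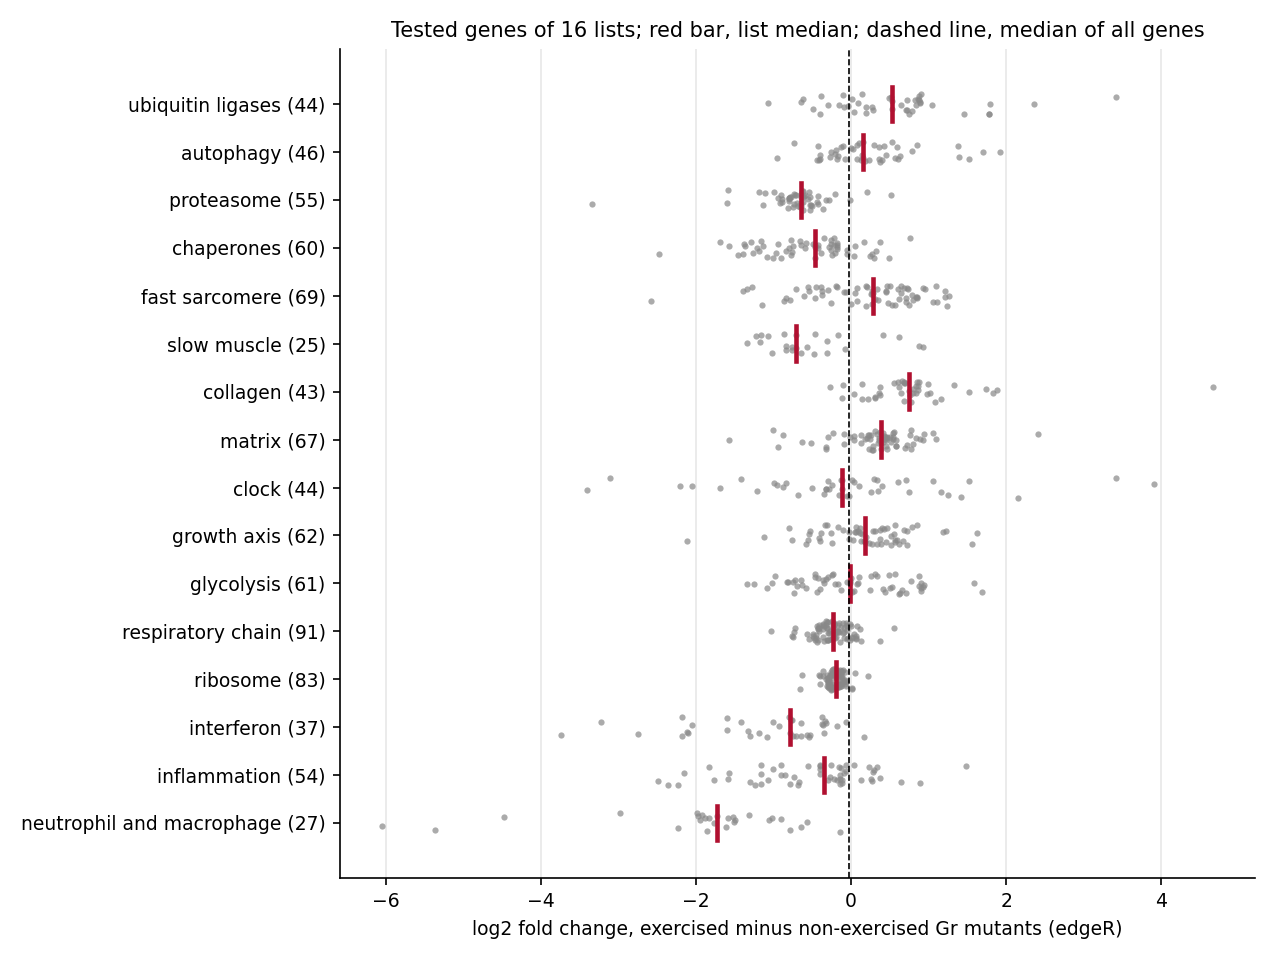
Log2 fold change of the tested members of 16 gene lists in exercised against non-exercised Gr mutants (grey points, genes; red bars, list medians; number tested in parentheses; dashed line, median of all 14584 genes, at -0.02). Medians lie to the right for collagens (0.74) and ubiquitin ligases (0.53) and to the left for neutrophil and macrophage genes (-1.72), interferon genes (-0.78), slow muscle genes (-0.71) and proteasome subunits (-0.65).

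Fast sarcomere genes differed in both directions, with more positive than negative fold changes, and most slow muscle genes had negative ones. Of 69 tested genes of the fast sarcomere, 7 were higher (10.1%) and 4 lower at an unadjusted p under 0.05, 46 fold changes were positive and 23 negative, with a median log2 fold change of 0.28. ttnb, a titin that spans the sarcomere, was read at 1280.5, 2207 and 2669 CPM in non-exercised and 3918, 4646 and 5703 CPM in exercised Gr mutants, without overlap (log2 fold change 1.21). The fast myosin heavy chain myhc4, one of the most abundant members, was read at 36628, 69205 and 96295 against 104833, 147905 and 130288 CPM, again without overlap but with an SE of 0.564 for a log2 fold change of 0.92. Other fast myosins, myha and myhz1.1 (chosen after their values were seen), had log2 fold changes of 1.23 and 1.21. The M-band gene MYOM2 (2 of 2) was higher, from 145, 232 and 334 to 379.7, 587 and 515 CPM. The skeletal actin actc1b and tropomyosin tpma overlapped between groups, at log2 fold changes of 0.85 and 0.64. In these sarcomere genes non-exercised replicate 1 was always the lowest library. Members that were lower included ankrd1a and TNNC2 (2 of 2), a fast troponin C read at 26.3, 24.04 and 26.8 against 16.9, 12.8 and 13.3 CPM. The summed level of the list, 297991, 380753 and 644785 CPM without and 539853, 740306 and 718796 CPM with exercise, overlapped at non-exercised replicate 3. On dropping each library in turn, the number of members higher ranged from 0 to 29 (0 without exercised replicate 3, 1 without non-exercised replicate 1 or exercised replicate 2, 2 without non-exercised replicate 2, 29 without non-exercised replicate 3), that of members lower from 2 to 7 (2 without non-exercised replicate 2, 7 without non-exercised replicate 3), and the median from 0.19 to 0.57 (0.57 without non-exercised replicate 3).

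Of 25 tested slow muscle genes, 21 had a negative fold change, 7 were lower at an unadjusted p under 0.05 (28%) and 2 were higher, with a median of -0.71. tnni1d, a slow troponin I, was read at 177, 174 and 99.03 CPM without and 79.5, 70.6 and 49.1 CPM with exercise. tnnt1, a slow troponin T, was read at 46.99, 57.8 and 34.2 against 32.3, 19.6 and 16.6 CPM, and actn2b, an alpha-actinin, at 16.99, 24.5 and 10.3 against 8.96, 7.69 and 6.46 CPM. None of these overlapped between groups. The slow myosin smyhc2 was read at 611, 1118 and 1011 against 669, 592 and 276 CPM and overlapped. sox6, a repressor of the slow fibre programme, went the other way, at 22.97, 32.9 and 34.2 against 58.3, 40.4 and 66.7 CPM. Exercised replicate 3 had the lowest level in tnni1d, tnnt1, actn2b and smyhc2. The library medians of the list overlapped, at -0.46, 0.26 and 0.11 in non-exercised against -0.17, -0.52 and -1.34 in exercised replicates. Summed levels overlapped as well, at 4631, 5635 and 5906 against 4929, 4375 and 2326 CPM. Red fibres lie close to the dissected white muscle, and in bulk RNA fewer slow fibres and less RNA per fibre cannot be told apart. With 1 library left out, the number of members lower ranged from 2 to 9 (2 without exercised replicate 2, 3 without non-exercised replicate 2 or exercised replicate 3), that of members higher from 0 to 3 (0 without exercised replicate 3, 1 without non-exercised replicate 1 or exercised replicate 1 or exercised replicate 2), and the median from -0.89 to -0.35 (-0.35 without exercised replicate 3).

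Most collagens had positive fold changes, with a list median of 0.74 on the log2 scale. Of 43 tested, 40 had a positive fold change, 9 were higher at an unadjusted p under 0.05 (20.9%) and 0 were lower. col10a1b, a collagen X gene of bone and scale, was read at 1.699, 0.346 and 5.25 CPM in non-exercised and 11.3, 41.9 and 127 CPM in exercised Gr mutants, with exercised replicate 3 far above the rest (log2 fold change 4.67, SE 1.07). col10a1a was read at 4.57, 9.28 and 25.2 against 37.1, 35.5 and 65.6 CPM. col19a1 (ENSDARG00000096073) was read at 4.22, 7.96 and 5.601 against 12.6, 16.4 and 15.9 CPM and col5a3a, a fibril regulator, at 3.05, 3.46 and 3.64 against 6.02, 5.24 and 9.35 CPM, both without overlap. The abundant fibrillar collagens had positive fold changes of like size but overlapping groups. col1a1a was read at 307, 905 and 2362 CPM without and 2207, 2172 and 3196 CPM with exercise, and col1a2 at 335, 727 and 1957 against 1736, 1611 and 2195 CPM. In both, non-exercised replicate 3 lay at the exercised level and replicates 1 and 2 well below it. The same order held in col1a1b, col5a1, col6a1, col6a2 and col11a1b, with log2 fold changes of 0.68, 0.98, 0.84, 0.86 and 1.16. Leaving out 1 library at a time, the number of collagens higher ranged from 6 to 29 (29 without non-exercised replicate 3), and with non-exercised replicate 1 and exercised replicate 3 both left out it was 3. The median ranged from 0.44 to 1.07 (0.44 without non-exercised replicate 1), and without both of these libraries it was 0.34.

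Of 67 other matrix and remodelling genes, 54 had a positive fold change, 10 were higher (14.9%) and 1 was lower at an unadjusted p under 0.05, with a median of 0.38. nid2a, a nidogen that links laminin to collagen IV, was read at 19.9, 24.2 and 38.05 CPM without and 53.98, 53.7 and 68.3 CPM with exercise. The basement membrane proteoglycan hspg2, perlecan (chosen after its values were seen), was read at 109, 133 and 127 against 191, 189 and 217 CPM. cyr61, a matricellular protein induced by mechanical load in mammals, was read at 21.6, 26.7 and 27.5 against 38.7, 55.3 and 63.8 CPM. In all 3 genes every exercised library lay above every non-exercised one, and log2 fold changes were 1.101, 0.69 and 1.06. The collagenase mmp13b was near the detection limit without exercise, at 4, 4 and 12 counts, and had 18, 20 and 23 counts with exercise. timp2b, an inhibitor of metalloproteinases, was the lower member, at 17.6, 27.6 and 7.38 against 5.39, 6.71 and 5.64 CPM. The collagen-binding sparc and the fibroblast protein postnb followed the fibrillar collagens, with overlapping groups and log2 fold changes of 0.77 and 0.77. The number of members higher ranged, with each library left out once, from 7 to 21 (21 without non-exercised replicate 3), and the median from 0.20 to 0.51 (0.20 without non-exercised replicate 1). With non-exercised replicate 1 and exercised replicate 3 both left out, 3 were higher and the median was 0.17.

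**Figure D3:**
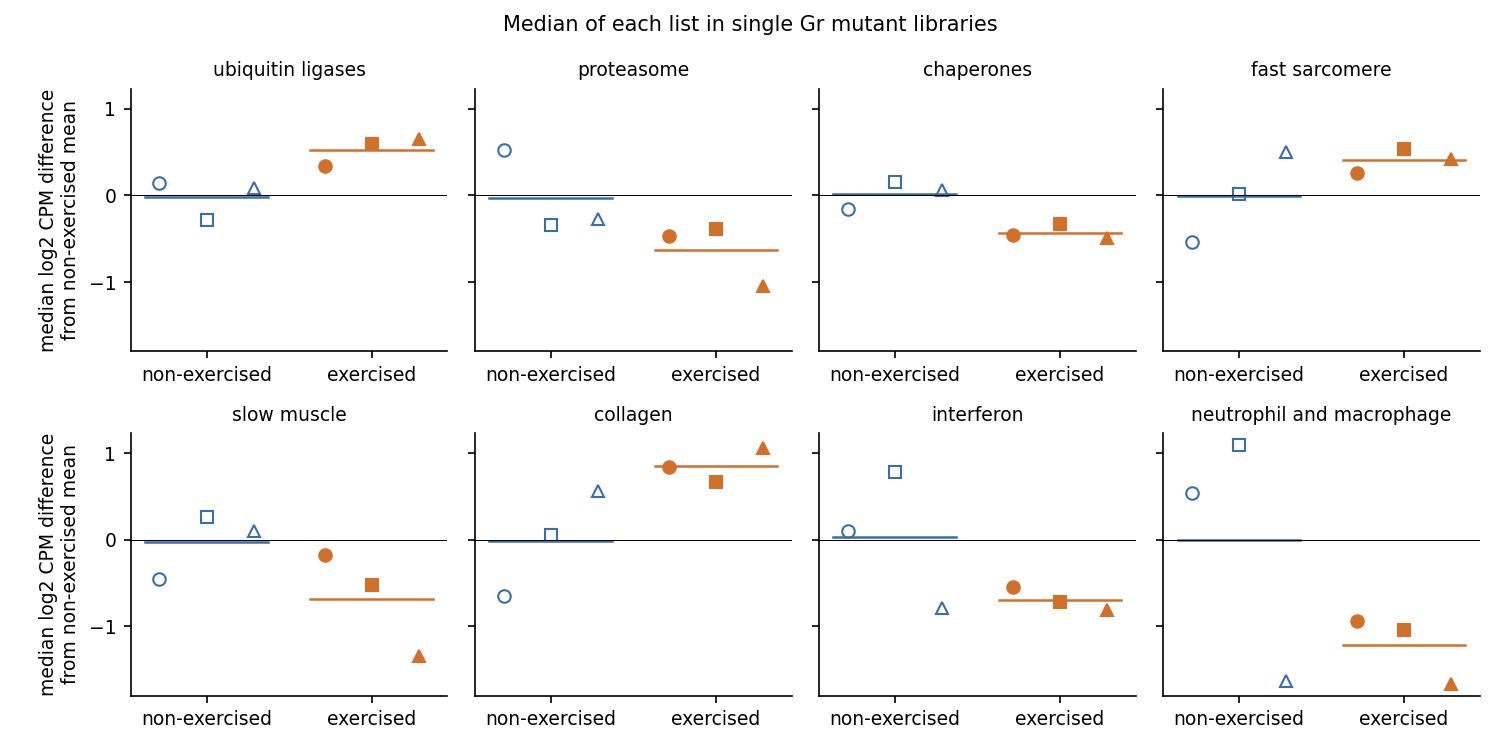
Median log2 CPM of 8 gene lists in single Gr mutant libraries, as the difference from the non-exercised mean of each gene (horizontal lines, group means; shapes mark replicates 1 to 3 as circle, square and triangle). Exercised and non-exercised libraries do not overlap in ubiquitin ligases, chaperones, collagens or proteasome subunits. The closest libraries are 0.56 against 0.66 in collagens and -0.34 against -0.38 in proteasome subunits (non-exercised against exercised). In collagens, fast sarcomere, interferon and macrophage genes non-exercised replicate 3 lies at or near the exercised level.

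Clock genes differed in both directions. Of 44 tested, 9 were higher (20.5%) and 6 lower (13.6%) at an unadjusted p under 0.05, and the median log2 fold change was -0.12. arntl1b, a Bmal that activates the clock, was read at 1.82, 1.61 and 2.58 CPM without and 4.201, 6.55 and 6.46 CPM with exercise, so it was higher together with the ROR genes above. nr1d1, the Rev-erb alpha repressor of Bmal, was read at 34.6, 5.25 and 3.56 against 1.98, 0.655 and 1.24 CPM, lower in every exercised library (log2 fold change -3.41, SE 0.904), with non-exercised replicate 1 far above the other two. The same library stood highest in per1a, a period repressor, read at 20.3, 2.13 and 0.978 against 1.35, 0.819 and 0.412 CPM, in dbpa, an output factor, at 11.8, 4.61 and 1.51 against 1.98, 0.164 and 1.51 CPM, and in ciarta, another repressor, at 24.7, 4.56 and 1.96 against 3.01, 1.64 and 2.75 CPM, all 3 chosen after their values were seen. dbpb had this order too, at 61.5, 5.71 and 4.71 against 5.71, 4.91 and 11.8 CPM. nfil3-5, which represses the same promoters that dbpa activates, was read at 3.75, 8.13 and 25.4 against 24.8, 114 and 256 CPM, with non-exercised replicate 3 just above exercised replicate 1 (log2 fold change 3.41, SE 0.9204). Across the 6 fits that each lacked 1 library, the number of clock genes lower ranged from 2 to 10 (2 without non-exercised replicate 1, 3 without exercised replicate 2, 10 without non-exercised replicate 3) and that of genes higher ranged from 6 to 11. The hour at which each fish was sampled is not given in the sources used here.

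Growth signalling showed a mixed picture in which insulin receptor substrates and a FoxO factor stood out. Of 62 tested genes of the growth hormone, IGF and insulin axis, 8 were higher and 4 lower at an unadjusted p under 0.05 (12.9% and 6.45%), with a median of 0.18. foxo3b, a transcription factor that drives ubiquitin ligase and autophagy genes, was read at 26.1, 37.5 and 25.7 CPM without and 86.3, 63.03 and 58.7 CPM with exercise, without overlap (log2 fold change 1.22). irs2b, an adaptor of the insulin receptor, was read at 7.85, 7.27 and 14.1 against 21.96, 19.2 and 25.2 CPM, and its paralogue irs2a (chosen after its values were seen) at 13.8, 1.67 and 15.5 against 31.3, 35.7 and 28.5 CPM. socs1a, a brake on cytokine and growth hormone signals, was read at 7.09, 5.48 and 2.49 against 1.11, 1.15 and 1.24 CPM, and rps6kb1a, the S6 kinase, at 4.57, 7.09 and 7.29 against 3.49, 2.62 and 2.47 CPM. In these 5 genes no exercised library fell within the non-exercised range. The growth hormone receptor ghrb overlapped between groups, at 25.4, 36.8 and 33.5 against 62.2, 49.8 and 29.8 CPM, as did the IGF binding protein igfbp1a, at 1.17, 2.88 and 7.02 against 1.59, 3.602 and 10.03 CPM. mtor was slightly higher in each exercised library, at 14, 19.8 and 19.1 against 23.2, 22.9 and 29.8 CPM (log2 fold change 0.52, SE 0.252). The most abundant binding protein, igfbp5b, was read at 177, 178 and 173 against 274, 192 and 184.5 CPM. On dropping each library in turn, the number of members higher ranged from 5 to 8 (5 without exercised replicate 2) and that of members lower from 2 to 5 (2 without exercised replicate 2).

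Of 46 tested genes known in other settings to respond to glucocorticoids, 5 were higher and 5 lower at an unadjusted p under 0.05 (10.9% and 10.9%), with a median of 0.15. The higher ones included foxo3b and trim63a, described above, and pdk4 and dusp1, described below. hsd11b1la, related to the enzymes that interconvert cortisol and cortisone, was lower, at 3.16, 2.88 and 2.04 against 1.51, 0.819 and 0.825 CPM. Satellite cell and myogenic genes gave 3 higher and 2 lower of 48 (6.25% and 4.17%), near the shares of all genes. Without non-exercised replicate 3 these counts were 7 and 4. Of the 48, 35 had a positive fold change (72.9%, against 48.3% of all genes), with a median of 0.23. The library medians of this list were -0.11, 0.07 and 0.02 in non-exercised and 0.30, 0.25 and 0.29 in exercised replicates, without overlap. Among these 48 genes, pax7a and pax7b, which mark satellite cells, had log2 fold changes of 0.24 and 0.01 with overlapping groups. The gene dok7, of the nerve-muscle junction, was read at 10.1, 11.3 and 11.4 against 15.6, 16.5 and 14.98 CPM without overlap. With 1 library left out, the number of glucocorticoid list genes higher ranged from 3 to 12 (3 without exercised replicate 3, 9 without non-exercised replicate 3, 12 without non-exercised replicate 1), that of genes lower from 2 to 6 (2 without non-exercised replicate 1 or exercised replicate 2), and the median from -0.062 to 0.32 (-0.062 without non-exercised replicate 2, 0.25 without exercised replicate 2, 0.30 without exercised replicate 1, 0.31 without non-exercised replicate 1, 0.32 without non-exercised replicate 3).

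Among fuel genes, 4 of 5 tested kinases of pyruvate dehydrogenase were higher in exercised Gr mutants, while glycolysis genes on the whole were about as often higher as lower. Of 61 tested genes of glycolysis and glycogen metabolism, 8 were higher and 7 lower at an unadjusted p under 0.05 (13.1% and 11.5%), and the median log2 fold change was -0.01. These kinases shut the enzyme that turns pyruvate into acetyl-CoA. pdk2a was read at 18.9, 13.4 and 31.5 CPM without and 98.9, 56.97 and 49.8 CPM with exercise, pdk3b at 21.7, 17.1 and 23.7 against 39, 44.4 and 33.7 CPM and pdk4 at 9.37, 12.1 and 9.78 against 18.6, 17.2 and 17.5 CPM. In these 3 kinases no group overlapped the other, and log2 fold changes were 1.69, 0.90 and 0.77. Their relative pdk1, chosen after its values were seen, had a log2 fold change of 0.90, also without overlap. The fifth kinase, pdk2b, likewise chosen after its values were seen, had 436, 375 and 7637 counts without and 1887, 2328 and 2787 counts with exercise, a log2 fold change of 0.33 with overlapping groups. Without non-exercised replicate 3, the highest of all 6 libraries, it was 3.69. bckdk, the matching kinase of branched-chain amino acid oxidation, was read at 17.3, 26.6 and 28.1 against 56.3, 54.7 and 46.6 CPM, also without overlap. pfkfb3 (chosen after its values were seen), which makes the activator of phosphofructokinase, was read at 8.61, 15.97 and 56.8 against 85.5, 78.4 and 78.9 CPM, with non-exercised replicate 3 the closest to the exercised libraries. gapdhs, a second glyceraldehyde phosphate dehydrogenase, was lower, at 52.6, 72.4 and 41.4 against 20.6, 27.3 and 22.1 CPM. acacb, which makes the malonyl-CoA that restrains fatty acid entry into mitochondria, was read at 29.8, 25.8 and 25.7 against 35.7, 54.2 and 53.7 CPM. Leaving out 1 library at a time, the number of glycolysis genes higher ranged from 4 to 17 (4 without exercised replicate 2, 17 without non-exercised replicate 3) and of those lower from 1 to 10 (1 without non-exercised replicate 2, 4 without exercised replicate 2).

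Mitochondrial and ribosomal genes had small negative medians and few members past an unadjusted p of 0.05. Of 91 tested nuclear-encoded respiratory chain genes, 3 were lower and 0 were higher, with a median of -0.23 that ranged from -0.45 to 0.046 (-0.45 without non-exercised replicate 2, -0.088 without exercised replicate 3, 0.046 without non-exercised replicate 3) with each library left out once. COX5B (2 of 3), a cytochrome oxidase subunit, was read at 12.3, 10.8 and 8.98 against 6.104, 7.04 and 5.77 CPM without overlap, and the abundant atp5b, of ATP synthase, overlapped at 1291, 1065 and 1993 against 1295, 1416 and 837 CPM. None of the 13 genes of the mitochondrial genome had an unadjusted p under 0.05, although all 13 had negative fold changes (median -0.32), and without non-exercised replicate 3 that median was 0.16. That library held the highest level of mt-co1, at 11758, 12218 and 21874 CPM in non-exercised and 17758, 10717 and 9388 CPM in exercised Gr mutants. Of 83 ribosomal protein genes, 2 were lower and 0 higher, with a median of -0.19 that turned to 0.06 without non-exercised replicate 3. Fatty acid genes gave 1 higher of 55 (1.82%) and AMPK subunits 1 higher of 12 (8.33%). The latter was prkag3b, at 9.02, 2.94 and 6.22 against 10.5, 16.9 and 11.8 CPM. ppargc1a, the coactivator of mitochondrial growth, was read at 0.879, 2.31 and 2.84 against 2.62, 1.64 and 0.962 CPM, with overlapping groups.

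Polyamine genes differed in opposite senses. smox, which breaks down spermine, and oaz2a, the antizyme that blocks polyamine synthesis, were higher, the latter at 56.9, 65.6 and 63.8 CPM without and 151, 173 and 127 CPM with exercise. amd1, which makes the aminopropyl donor of spermidine and spermine, was read at 90.9, 165 and 142 against 56.6, 14.7 and 23.1 CPM. odc1 (chosen after its values were seen), the first enzyme of the pathway, was read at 4.63, 16.95 and 4.89 against 1.51, 3.93 and 3.16 CPM. All 4 genes had groups without overlap, with log2 fold changes of 1.69, 1.27, -2.07 and -1.67 in the order named. Over the 71 tested genes of the integrated stress response and amino acid metabolism, to which these 4 genes belong, 4 were higher and 4 lower at an unadjusted p under 0.05, a share near that of all genes. Without non-exercised replicate 1 the number higher was 7, and without exercised replicate 1 the number lower was 2. Antioxidant genes gave 5 higher and 7 lower of 54 (9.26% and 12.96%). On leaving out each library the number higher ranged from 2 to 6 (2 without non-exercised replicate 2 or exercised replicate 2, 3 without exercised replicate 1 or exercised replicate 3). nfe2l2a, the Nrf2 gene, was lower, at 24.6, 30.04 and 22.05 against 13.3, 9.99 and 15.9 CPM, and nfe2l1a, which drives proteasome genes in mammals, was higher, at 17.9, 5.19 and 12.4 against 45.5, 40.11 and 30.5 CPM. txn, a thioredoxin, was read at 22.9, 38.2 and 1.87 against 1.19, 1.64 and 1.51 CPM, so that only non-exercised replicates 1 and 2 were high. osgn1, an oxidative stress induced growth inhibitor, was read at 5.04, 15.7 and 4.53 against 1.66, 0.982 and 2.75 CPM without overlap.

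Immediate early genes, which respond to activity within minutes to hours, gave 8 higher and 2 lower of 48 (16.7% and 4.17%). IER2 (1 of 2) was read at 3.11, 5.77 and 5.07 CPM without and 9.196, 29.5 and 52.4 CPM with exercise, jun at 32.6, 26.4 and 43.8 against 62.4, 62.9 and 73.4 CPM and the phosphatase dusp1 at 36.2, 39.2 and 77.1 against 82.8, 115 and 176 CPM. In these 3 every exercised library was above the non-exercised ones, and exercised replicate 3 was the highest library in each. The number of members higher ranged, with each library left out once, from 3 to 11 (3 without exercised replicate 3, 4 without non-exercised replicate 1), and that of members lower from 0 to 5 (0 without exercised replicate 1 or exercised replicate 2, 1 without non-exercised replicate 2, 5 without exercised replicate 3). Ion channels, pumps and calcium handling genes gave 7 higher and 5 lower of 82 (8.54% and 6.10%). Among them were cacnb1, the beta subunit of the calcium channel that triggers contraction, at 6.86, 11.8 and 13.8 against 22.99, 18.01 and 27.4 CPM, and atp1b1a, a sodium pump subunit, at 49.98, 53.97 and 48.98 against 30.4, 21.6 and 28.5 CPM. Leaving out 1 library, the ion transport count higher ranged from 4 to 12 (4 without exercised replicate 2 or exercised replicate 3, 12 without non-exercised replicate 3) and the count lower from 2 to 7 (2 without non-exercised replicate 2 or exercised replicate 2, 3 without exercised replicate 3). Cell cycle genes gave 1 higher and 3 lower of 56 (1.79% and 5.36%). The higher one was the inhibitor cdkn1d, at 7.5, 2.31 and 11.3 against 24.4, 38.1 and 40.14 CPM. The lower ones included the replication clamp pcna, at 45.1, 26.9 and 18.7 against 14.4, 18.7 and 13.5 CPM. The cell cycle median was -0.20. Library medians were 0.03, 0.50 and -0.59 in non-exercised and -0.50, -0.73 and 0.59 in exercised replicates. Without exercised replicate 3, which held the oocyte transcripts, 36 of 43 cell cycle genes had a negative fold change and the median was -0.64. The part of the oocyte transcripts in this list was not tested. Vessel genes gave 4 higher and 1 lower of 54 (7.41% and 1.85%), and sterol genes 1 and 1 of 36 (2.78% and 2.78%). With each library left out once, cell cycle genes lower ranged from 1 to 8 (1 without non-exercised replicate 2 or exercised replicate 1, 8 without non-exercised replicate 3), vessel genes higher from 0 to 5 (0 without exercised replicate 2, 1 without non-exercised replicate 2, 2 without exercised replicate 1) and sterol genes lower from 0 to 4 (0 without exercised replicate 2, 2 without exercised replicate 3, 4 without non-exercised replicate 3). Several other genes called by DESeq2 were chosen after their values were seen. METTL21C (2 of 2), a methyltransferase of muscle, was read at 14.8, 17.8 and 2.58 against 80.2, 113 and 62.8 CPM, lmod2b, which nucleates actin in thin filaments, at 8.38, 11.2 and 7.29 against 13.6, 35.7 and 29.8 CPM, and mid1ip1l, which promotes fatty acid synthesis, at 34.8, 101 and 71.6 against 22.7, 18.2 and 26.8 CPM. zgc:171497, of undescribed function, had 2, 3 and 1 counts without and 48, 38 and 18 counts with exercise. It passed the count filter only through the exercised group. No fold is given because each non-exercised library held 3 counts or fewer.

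Immune genes had negative fold changes as a group, with the high levels in non-exercised replicates 1 and 2. Of 27 tested neutrophil and macrophage markers, all 27 had a negative fold change and 16 were lower at an unadjusted p under 0.05 (59.3%), yet the groups did not overlap in only 1. The summed level of this list was 1266, 988 and 174 CPM in non-exercised and 246, 254 and 204 CPM in exercised libraries, so non-exercised replicate 3 was the lowest of all 6. c1qb, a complement gene of macrophages, was read at 32.1, 53.9 and 6.49 against 9.99, 8.35 and 7.698 CPM and lcp1, a plastin of white blood cells, at 99.9, 149 and 20.3 against 25.3, 38.3 and 18.1 CPM. Of 37 tested interferon genes, 36 had a negative fold change and 11 were lower (29.7%). stat1b, a transcription factor of the interferon response, was read at 5.8, 38.9 and 2.04 against 2.38, 1.47 and 0.962 CPM, and gbp1, an interferon-induced GTPase, at 15.1, 53.4 and 1.96 against 0.793, 3.602 and 1.24 CPM, both with overlap and with non-exercised replicate 2 the highest. Of 54 inflammation genes, 12 were lower and 2 higher, among them il6r, the interleukin 6 receptor, lower at 8.14, 3.17 and 2.31 against 1.51, 0.655 and 0.5499 CPM without overlap. Across the 6 fits that each lacked 1 library, the number of neutrophil and macrophage markers lower ranged from 3 to 24 (3 without exercised replicate 3, 4 without non-exercised replicate 2, 8 without exercised replicate 2, 9 without exercised replicate 1, 10 without non-exercised replicate 1), and with non-exercised replicate 1 and exercised replicate 3 both left out it was 1. For interferon genes it ranged from 2 to 24 (2 without non-exercised replicate 2, 5 without exercised replicate 3, 7 without exercised replicate 1, 24 without non-exercised replicate 3). For inflammation genes it ranged from 6 to 18 (6 without exercised replicate 3, 7 without non-exercised replicate 2). With non-exercised replicate 1 and exercised replicate 3 both left out, 3 inflammation genes were lower. The median of interferon genes ranged from -1.12 to -0.29 (-0.29 without non-exercised replicate 2) and that of the neutrophil and macrophage list from -2.14 to -1.08 (-1.08 without non-exercised replicate 2). The neutrophil genes lyz, npsn and mpx were high in non-exercised replicate 1 alone, at 428, 150 and 69.2 CPM. In non-exercised replicate 2 they were read at 1.21, 2.31 and 0.92 CPM. Kidney tubule genes summed to 222 CPM in replicate 1 and 6.69 CPM in replicate 2. These genes and that list were chosen after their values were seen. Fewer immune cells, less RNA per cell and immune transcripts from other organs cannot be told apart here. The part of each in the other lists was not tested.

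**Figure D4:**
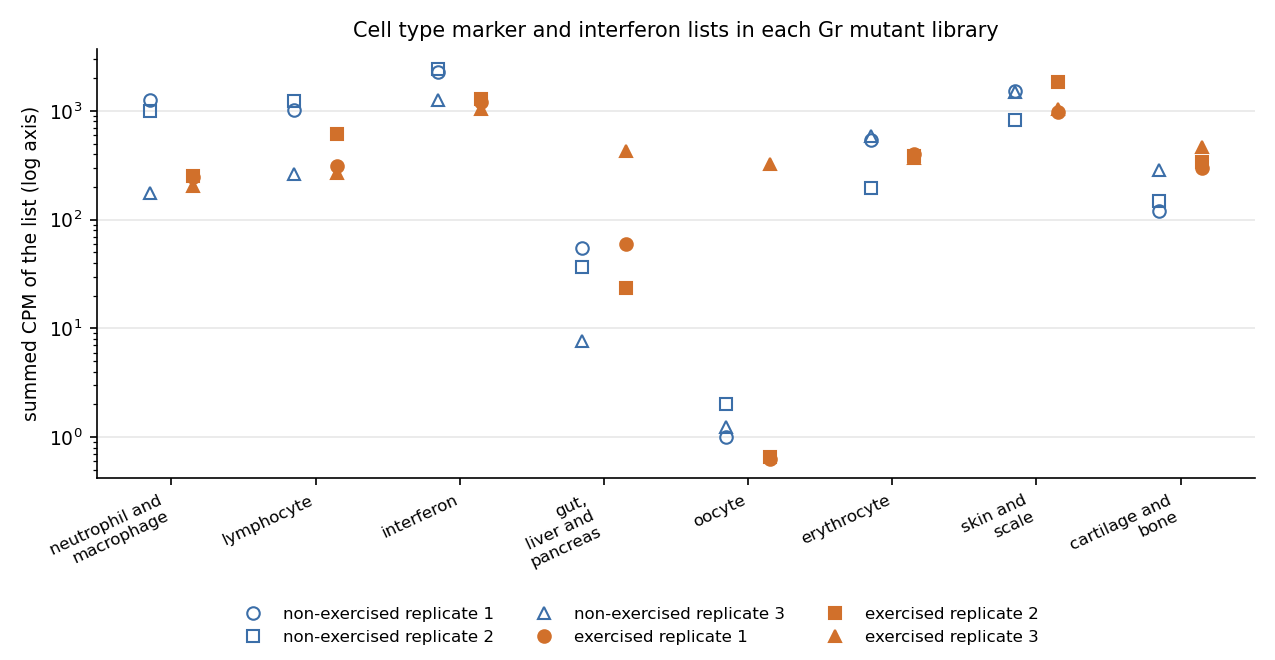
Summed level of cell type marker lists and of the interferon list in each Gr mutant library, in CPM on a log axis (open blue symbols, non-exercised; filled orange symbols, exercised). Non-exercised replicates 1 and 2 hold the high neutrophil and macrophage sums (1266 and 988 CPM), and exercised replicate 3 stands alone in the oocyte list (323 CPM) and in the gut, liver and pancreas list (426 CPM).

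Markers of further cell types varied among libraries. Cartilage and bone genes gave 4 higher and 0 lower of 9 tested, with sums of 119, 148 and 286 CPM in non-exercised and 296, 337 and 464 CPM in exercised libraries, which do not overlap. phex, a peptidase of bone cells, was read at 14.8, 10.3 and 11.9 against 20.5, 29.96 and 38.4 CPM and spp1, osteopontin, at 1.99, 0.692 and 7.82 against 8.88, 12.3 and 10.4 CPM. Erythrocyte sums were 539, 196 and 594 against 402, 381 and 372 CPM and skin and scale sums 1521, 829.6 and 1488 against 976, 1844 and 1048 CPM, both with overlap. Adipocyte genes gave 2 lower and 0 higher of 8, nerve genes 0 and 0 of 17, and lymphocyte genes 1 lower, mhc2dab, of 9. Of the gut, liver and pancreas genes 2 were higher of 8 tested, ctrb1 and prss59.1, genes of digestive proteases. prss59.1 was read at 0.234, 0.577 and 0 against 11.5, 1.15 and 67.5 CPM, with most in exercised replicate 3. Of the oocyte list no gene passed the filter on counts. The part of these cell types in the differences above was not tested.

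Some genes that the naming rule takes in fell below the filter and were not tested. The progesterone receptor gene pgr had 4, 1 and 0 counts in non-exercised and 21, 6 and 20 in exercised Gr mutants, and the IGF binding protein igfbp6a had 2, 0 and 0 against 31, 4 and 9 counts. ogfrl1 had 7, 16 and 16 against 5, 0 and 4 counts, and greb1l had 13, 7 and 4 against 10, 2 and 8. greb1, a gene induced by steroid hormones in mammals, passed the filter with 4, 26 and 7 counts without and 97, 11 and 75 counts with exercise. Its CPM did not overlap between groups, at 0.234, 1.5 and 0.622 against 7.69, 1.8 and 10.3 (log2 fold change 3.05, SE 0.737). The androgen receptor gene ar was read at 8.32, 16.7 and 15.9 against 19.98, 18.8 and 17.7 CPM, slightly higher in each exercised library. Unlike greb1 and ar, these genes had overlapping groups: fgf13a (log2 fold change 1.00), gas7a (1.32), col8a1b (0.77), col11a2 (1.75), mb, the myoglobin gene (-0.17), myhb (-1.34) and myo3a (-0.02).

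To ask whether the exercise difference of the mutants was shared by wild-type fish, an interaction term between exercise and genotype was fitted to the 12 libraries. None of 16056 genes was called by edgeR (0% called at an adjusted p under 0.05, lowest 0.49), and 1347 had an unadjusted p under 0.05. DESeq2 did call genes for this term, and their number is given below with the other alternatives. Of the 24 genes named by lowest p in the mutants, 21 had the same sign in wild-type fish and 12 had an interaction at an unadjusted p under 0.05. The 12 of 24 stand beside 1347 of 16056 over all genes. The share of all genes with the same sign in both genotypes is not given, so 21 of 24 has no background here. These genes were chosen for their difference in the mutants, so their interaction terms are a description. ampd3b had a log2 fold change of 2.64 (SE 0.305) in mutants and 2.44 (SE 0.3104) in wild-type fish, with an interaction of 0.20 (SE 0.4101). rorcb had 3.90 and 5.62, and tp53inp1 1.92 and 1.56, so in these genes the difference had one direction in both genotypes. By the paper's methods each group had its own tunnel and held both Gr mutant and wild-type fish, genotyped after the experiment. The genotypes thus shared tunnels, and a like sign in wild-type fish cannot tell a tunnel difference from an exercise difference. Opposite signs were found in mhc2dab (-3.30 and 1.22), ankrd1a (-2.57 and 0.60) and atp6v0ca (-1.21 and 0.16). For atp6v0ca the interaction was -1.35 (SE 0.289, unadjusted p = 0.000483, edgeR adjusted p = 0.4903). dennd4a and slc43a2a had log2 fold changes of 1.76 and 1.45 in mutants and of 0.20 and 0.08 in wild-type fish. foxo3b had 1.22 in mutants and -0.29 in wild-type fish (interaction 1.52, SE 0.451, unadjusted p = 0.00538), and ghrb had 0.57 and -1.64. Among the lists, medians of mutants and wild-type fish were 0.74 and 0.68 for collagens, -0.65 and -0.42 for proteasome subunits, -0.47 and -0.33 for chaperones, 0.53 and 0.09 for ubiquitin ligases, -0.71 and -0.06 for slow muscle genes and -0.78 and 0.09 for interferon genes. Without exercised replicate 3 the mutant median of slow muscle genes was -0.35, without non-exercised replicate 2 that of interferon genes was -0.29, and without non-exercised replicate 1 that of collagens was 0.44 and that of proteasome subunits -0.35. The difference of these medians between genotypes was not tested.

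**Figure D5:**
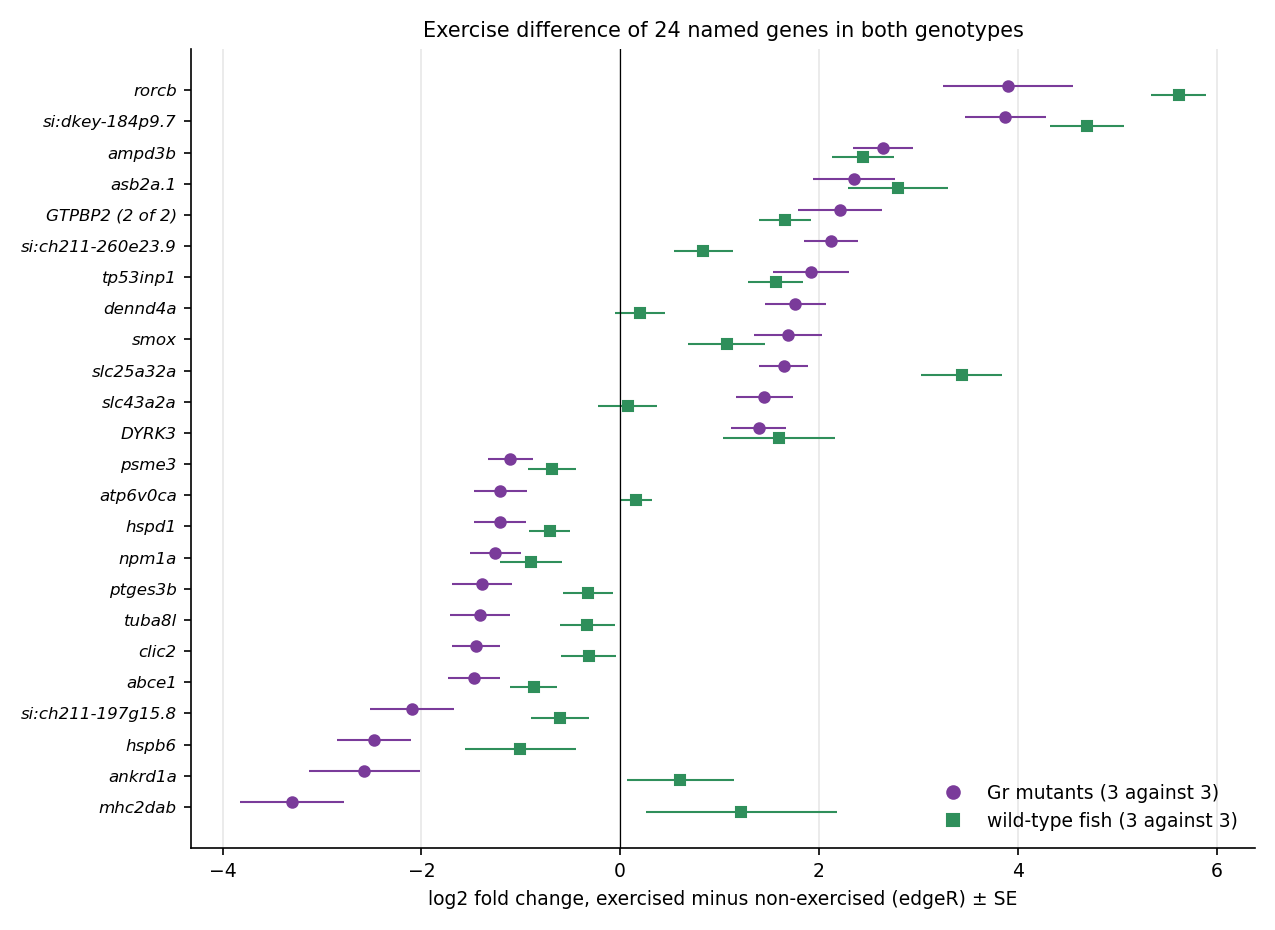
Log2 fold change of exercised against non-exercised fish with its SE from edgeR, for the 24 genes named by lowest p in Gr mutants (purple circles) and the same genes in wild-type fish (green squares). All 12 higher genes lie to the right of 0 in both genotypes, and mhc2dab, ankrd1a and atp6v0ca lie on opposite sides.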

How the data were processed

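RNA from white muscle was read in 12 libraries, of which the 6 of Gr mutants carry the results and the 6 of wild-type fish serve as comparison. As the study's methods state, the authors aligned single-end reads to the zebrafish genome GRCz10 with TopHat 2.0.5, removed secondary alignments with SAMtools 0.1.18 and counted reads per gene with HTSeq 0.5.3p9. The deposited values used here are these raw read counts, and whether the counting used strand is not given in the sources used here, so overlapping or antisense genes and near-identical copies (fast myosins, adjacent paralogues) may share reads. Columns with the authors' own DESeq fold changes and p-values were not used, and 0 columns of other samples were present.

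Genes with 10 or more counts in 3 or more of the 6 libraries were tested with edgeR 4.0.16 (TMM scaling, quasi-likelihood, two-sided, Benjamini-Hochberg adjustment over all genes tested, threshold 0.05) in R 4.3.3. CPM is the count per 1000000 reads of the tested genes after TMM scaling. Alternatives were DESeq2 1.42.0, limma voom 3.58.1, RLE and upper-quartile scaling, other filters, a replicate block, all 12 libraries in the fit, and each library left out. Figures were drawn with matplotlib 3.10.9. The test was also tried on counts simulated at the means and spread of these libraries. There edgeR recovered 0 of 92 genes changed 2-fold and 39 of 97 changed 4-fold, with 3 false calls. DESeq2 recovered 3 of 92 and 61 of 97, with 14 false calls. Each gene was drawn independently, so differences that run through a whole library, such as transcripts of other organs, were not simulated. These numbers need not hold for the measured libraries. Library totals of 7688323 to 13894240 reads leave genes near 10 counts with wide errors.

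The comparison and all gene lists were chosen with earlier results of these data known. The naming rule took the 12 genes of lowest p in each direction with a mean of at least 100 counts and groups without overlap, nr3c1, genes discussed by the study, and in each list the 4 of lowest p and the 2 of highest CPM. A list is described by its counts and its median, with no set test. List members named for a low p were picked on the same values, so groups without overlap among them are a description. Genes marked as chosen after their values were seen, and the cubn and lyz levels used to describe libraries, fall outside that rule or serve as markers only. The part of each library's foreign transcripts in the results was not tested.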

Additional observations from a re-analysis of the deposited data

How the results depend on the processing

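Beside the 0 genes called by edgeR in exercised Gr mutants, 4 passed with no filter on low counts, 96 with DESeq2, 6 with all 12 libraries in the fit, 3 at an adjusted p under 0.1 and 1537 at an unadjusted p under 0.05. RLE scaling, upper-quartile scaling, a filter of 50 counts and limma voom with or without sample quality weights gave 0. Leaving out 1 library gave 0 to 58 calls, the 58 without non-exercised replicate 3. The interaction with genotype gave 33 calls in DESeq2 on all 12 libraries. In edgeR it gave 0 with any Gr mutant library left out, and DESeq2 was not refitted in that way. Without both non-exercised replicate 1 and exercised replicate 3, an alternative chosen after seeing the data, 0 genes were called, and the median log2 fold change was 0.28 for autophagy genes and -0.16 for proteasome subunits. With each library left out in turn, those medians ran from 0.094 to 0.21 for autophagy genes and -0.83 to -0.35 for proteasome subunits. The replicate numbers do not pair the samples (correlations of same-numbered deviations -0.0859, -0.143 and 0.099), and a fit with the replicate block called 0 genes.

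With each library left out in turn, log2 fold changes of the named genes that changed sign under an alternative ran from -6.64 to 1.59 for lyz, -2.17 to 0.51 for dbpb, -1.89 to 0.028 for myhb, -0.85 to -0.039 for psmd1, -0.78 to 0.044 for psmb4, -0.57 to -0.035 for hsp90ab1, -0.48 to 0.0016 for atp5b, -0.54 to 1.29 for igfbp1a, -0.61 to 0.070 for mt-co1, -0.027 to 0.53 for pax7a, -0.62 to 0.16 for ppargc1a, -0.80 to 1.09 for mb, -0.17 to 0.28 for pax7b, -1.85 to 1.14 for myo3a and -0.21 to 3.69 for pdk2b. Without both of the libraries above they were 0.027 for dbpb, 0.16 for psmd1, 0.22 for psmb4, 0.050 for hsp90ab1, -0.97 for igfbp1a, -0.21 for pax7a, -0.30 for pax7b, -2.20 for myo3a and -0.39 for pdk2b. Other alternatives gave 0.033 for ppargc1a with voom, 0.035 for ppargc1a with voom and quality weights, 0.10 for mb with voom, 0.20 for mb with voom and quality weights, 0.24 for mb with the replicate block, -0.026 for pax7b with no filter, -0.0042 for pax7b with voom and quality weights and 0.024 for myo3a with upper-quartile scaling. The cause of these shifts was not tested. With 3 libraries a group and totals down to 7688323 reads, small differences in genes of few counts could not be resolved.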

Other observations

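Some genes were read almost wholly in a single Gr mutant library. Of 20520 genes with 10 or more reads over the 6 libraries, 180 had over 80% of their reads in non-exercised replicate 1, 38 in non-exercised replicate 2 and 216 in exercised replicate 3, against 2 or 3 in each of the others. In non-exercised replicate 1 these included the renal phosphate transporter slc34a1a, with 209 counts there and at most 1 elsewhere. In exercised replicate 3 they included the egg envelope gene zp2.1, with 332 counts there and at most 1 elsewhere. In non-exercised replicate 3 there were 3 such genes, among them GSTK1 (3 of 4), a glutathione transferase gene. It was read at 383 CPM (4303 counts) there, where the other libraries held 0.138 to 0.937 CPM.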
